A study of Homo sapiens with 6 samples.

Results

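The 40 genes described here encode proteins of homologous recombination and of the Fanconi anemia pathway of DNA crosslink repair. They were taken by symbol as a list, from BRCA1 and BRCA2 to FANCM and ATM, a rule that uses no measured value, although the list was drawn up with earlier results of these data known. All 40 were found among the 58395 genes of the count table, and all 40 were among the 23806 genes tested. Each had a count in all 6 libraries.

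RNA was sequenced from MDA-MB-231 cells, a breast adenocarcinoma line with low levels of hormone receptors. Cells of the siCRP2 group (3 libraries) had been transfected with siCRP2#a, a single siRNA against CSRP2, the gene of the actin-binding LIM protein CRP2. Cells of the siCTR group (3 libraries) had been transfected with a non-targeting siRNA. The labels give 65 h between transfection and RNA extraction for both groups. With 1 siRNA, effects of losing CRP2 and other effects of that siRNA cannot be told apart. Column names carry a code, 0412, 0611 or 1311, that is shared by 1 library of each group, and values are given below in that order.

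Homologous recombination repairs a double-strand break by copying the intact sister chromatid. Nucleases trim the broken ends, BRCA2 helps the exposed strand to invade that chromatid, and joined DNA molecules are then dissolved or cut apart. In the Fanconi anemia pathway a core complex attaches ubiquitin to FANCD2 and FANCI at a stalled fork, which calls in nucleases and, further on, recombination. Both routes act mainly in S and G2 phase, when a sister chromatid is at hand. Inherited loss of BRCA1, BRCA2 or PALB2 predisposes to breast cancer.

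CSRP2 itself stood at 2.17, 1.78 and 1.89 CPM (counts scaled to the library total times its TMM factor) in the siCRP2 libraries, against 13.7, 11.7 and 11.4 CPM in the siCTR libraries. The groups did not overlap, in the direction the labels give. Library totals ran from 18346442 to 39115778 counts in siCRP2 and from 17336798 to 25321830 counts in siCTR, so that 1 count was worth 0.0256 to 0.0582 CPM. Of the markers fixed for the line, VIM, CD44, CAV1, KRT8, KRT18 and MSN were at 598.8 to 2262 CPM over the 6 libraries, PGR had no count and ESR1 reached at most 0.0529 CPM, while CDH1 and EPCAM, set down as low markers, were at 33.2 and 24.3 CPM in siCRP2 cells and 17.4 and 31.4 CPM in siCTR cells.

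Most of the recombination and Fanconi anemia genes were higher in siCRP2 cells. Of the 40, 28 rose, 1 fell (FANCF) and 11 passed in neither direction at an adjusted p under 0.05 in edgeR's quasi-likelihood test with Benjamini-Hochberg adjustment over all genes tested. Over all genes tested, 12.5% were called higher and 11.5% lower. Their median log2 fold change was 0.54, siCRP2 over siCTR, against -0.02 for all genes tested, and ran from -0.45 for FANCF to 1.70 for EXO1. A rise of at least 1.5-fold was called for 17 members, against 4.58% of all genes tested, and 5 members (EXO1, BRCA2, BRCA1, BLM and RAD51AP1) rose by more than 2-fold, against 1.35%. The siCRP2 libraries lay above all siCTR libraries for 29 members, against 19.4% of all genes tested, and below them for FANCF and RAD51C, against 18% of all genes tested. Since weakly expressed genes rarely pass, the share among the 10445 protein-coding genes averaging 5 CPM or more is also given: 25.9% were higher and 18% lower, with a median of 0.08. When the code was entered as a block, 32 members were higher and 5 lower, against 19.5% and 17.8% of all genes tested. Without siCTR 0611, 18 members were higher. Counts over all genes in the fits with a library left out are given further below as a range, and they fell in some of those fits too. The count over all genes without siCTR 0611 is not given singly, so the 18 members cannot be set against it.

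**Figure D1:**
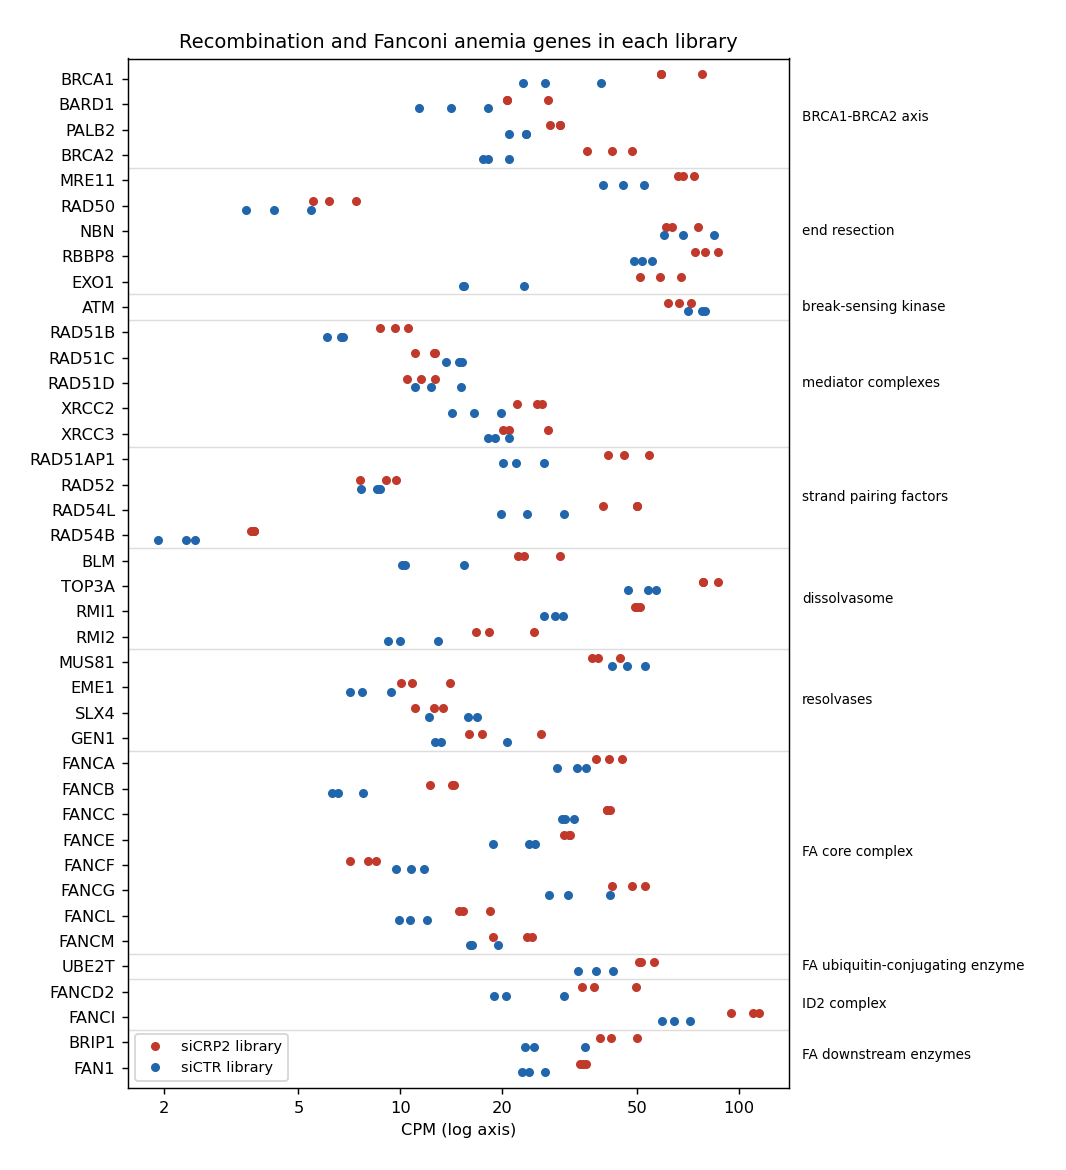
CPM of each of the 40 genes (log axis) in the 3 siCRP2 libraries (red, upper row of each gene) and the 3 siCTR libraries (blue, lower row), grouped by role. The red points lie to the right of all blue points for 29 genes and to the left of them for FANCF and RAD51C.

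All 4 genes of the BRCA1-BRCA2 axis rose, with a median log2 fold change of 0.89. BRCA2, which prepares resected DNA for strand invasion, had 48.2, 35.6 and 42.1 CPM in the siCRP2 libraries and 21.0, 17.6 and 18.1 CPM in the siCTR libraries. The lowest siCRP2 library was well above the highest siCTR library, and the log2 fold change was 1.15 (standard error 0.126, edgeR adjusted p = 4.8e-06). BRCA1, a ubiquitin ligase subunit that promotes end resection and brings in PALB2, had 77.7, 58.9 and 59.0 CPM in siCRP2 and 39.1, 26.7 and 23.1 CPM in siCTR. The groups did not overlap, though the 0412 library was the highest of both, and the log2 fold change was 1.13 (standard error 0.218, edgeR adjusted p = 0.0096). BARD1, the partner of BRCA1 in that ligase, averaged 22.9 ± 3.85 CPM in siCRP2 and 14.6 ± 3.41 CPM in siCTR (SD, n = 3 each), which is 0.64 on the log2 scale. PALB2, the bridge between BRCA1 and BRCA2, moved least of the axis. It had 29.7, 27.8 and 29.7 CPM in siCRP2 and 21.0, 23.5 and 23.6 CPM in siCTR, again without overlap (log2 fold change 0.36, standard error 0.109, edgeR adjusted p = 0.023). PALB2 did not pass when any library other than siCTR 1311 was left out (edgeR adjusted p = 0.053 to 0.122), nor did BARD1 without siCRP2 0412 or siCTR 0611 (edgeR adjusted p = 0.056 and 0.073).

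Of the 5 end resection genes, EXO1, RBBP8 and MRE11 rose and RAD50 and NBN did not pass. EXO1, the exonuclease that extends resection over long stretches, had the largest fold change of the 40. Its level was 67.3, 51.3 and 58.4 CPM in siCRP2 and 23.3, 15.4 and 15.5 CPM in siCTR. Every siCRP2 library held more than 2-fold the highest siCTR library, and the log2 fold change was 1.70 (standard error 0.171, edgeR adjusted p = 4.9e-05). Per kb of transcript, EXO1 was number 6 of the 40 in siCRP2 cells (17.1 CPM per kb) and number 21 in siCTR cells (5.23 CPM per kb). RBBP8, which encodes CtIP, the cofactor that starts resection, had 86.8, 74.5 and 79.3 CPM in siCRP2 and 55.6, 51.7 and 49.0 CPM in siCTR (log2 fold change 0.62, standard error 0.0927, edgeR adjusted p = 1.0e-04). These ranges lay apart by more than either of them spans.

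The 3 subunits of the MRE11-RAD50-NBN complex, which senses broken ends and makes the first cut, did not share a call. MRE11, its nuclease, had 73.7, 66.1 and 68.4 CPM in siCRP2 and 52.6, 45.6 and 39.9 CPM in siCTR (log2 fold change 0.59, standard error 0.105, edgeR adjusted p = 4.9e-04), with no overlap. NBN, the subunit that binds ATM, had 75.9, 63.4 and 61.1 CPM in siCRP2 and 84.5, 68.4 and 60.3 CPM in siCTR, overlapping ranges with a log2 fold change of -0.09. With an offset for GC content and transcript length NBN stood at -0.22 (edgeR adjusted p = 0.12), and with that offset and the block together it was called lower (-0.22, adjusted p = 0.0015). RAD50, the ATPase that tethers the ends, had 6.14, 5.54 and 7.37 CPM in siCRP2 and 4.23, 3.49 and 5.44 CPM in siCTR. Its groups lay side by side without overlap, at a log2 fold change of 0.53 (edgeR adjusted p = 0.061), and it passed with the code as a block (adjusted p = 0.0010), without siCTR 1311 (0.017), with no filter on low counts (0.044) and with counts thinned to the smallest library (0.045). RAD50 was also the lowest of the 40 per kb of transcript, at 0.768 CPM per kb in siCRP2 and 0.531 in siCTR, where MRE11 stood at 10.1 and 6.73 CPM per kb. In GENCODE, 76.9% of the exonic bases of RAD50 are shared with another gene on the same strand, ENSG00000283782, which had 1 count over the siCRP2 libraries and 1 over the siCTR libraries. Reads that fit both genes may be missing from the count of RAD50, and this was not tested.

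ATM, the kinase that signals double-strand breaks, was slightly lower in siCRP2 cells without passing the test. It had 72.5, 62.0 and 66.8 CPM in siCRP2 and 77.9, 79.4 and 70.7 CPM in siCTR, and only the 0412 library of siCRP2 reached into the siCTR range. The log2 fold change was -0.18 (standard error 0.0915, edgeR adjusted p = 0.18), with an adjusted p of 0.027 with the code as a block, 0.031 with the GC and length offset and 0.038 among protein-coding genes averaging 5 CPM or more.

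**Figure D2:**
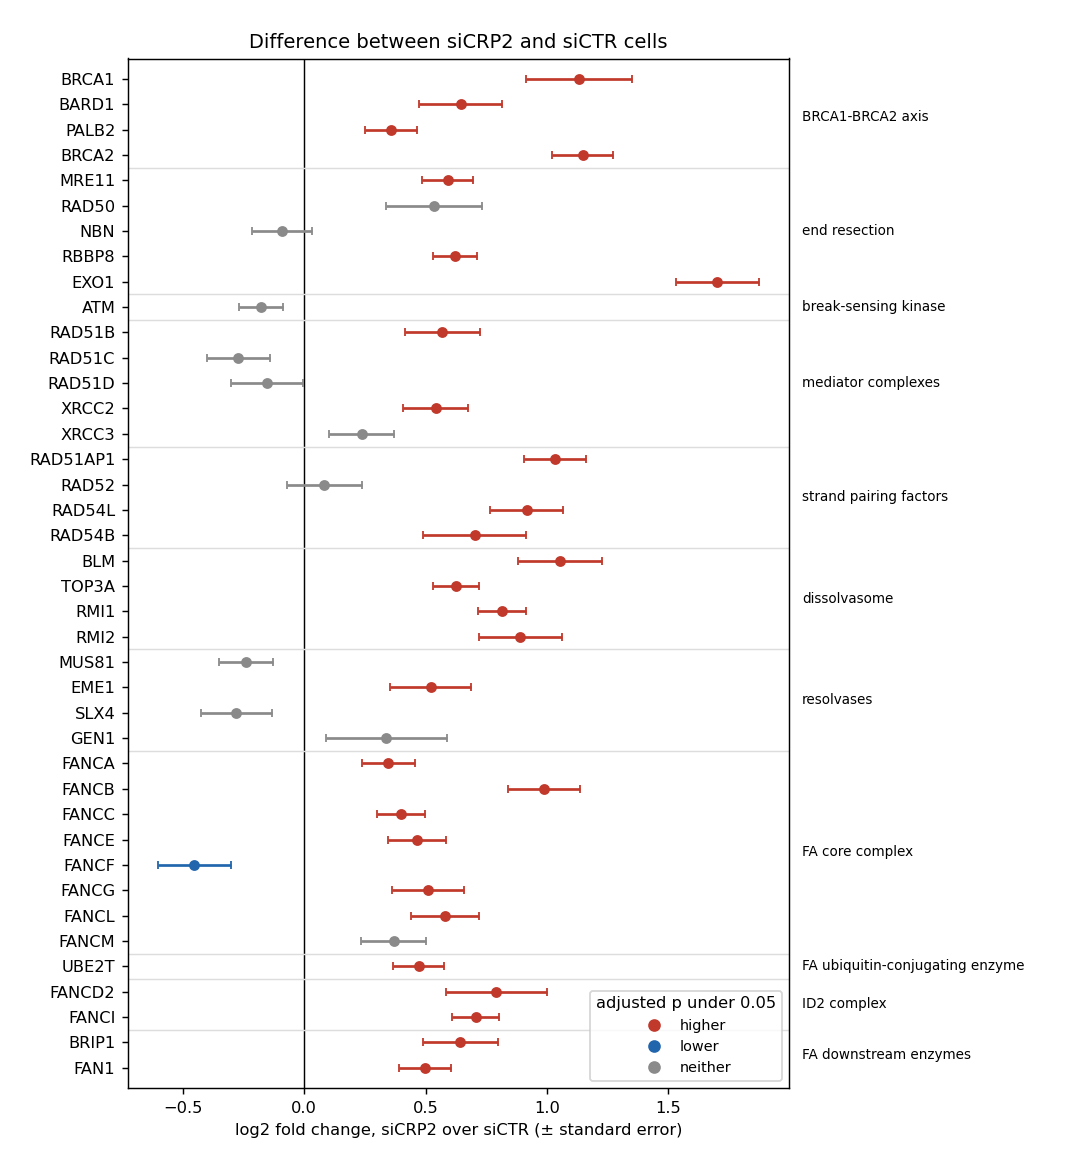
Log2 fold change of each gene, siCRP2 over siCTR, with its standard error (horizontal axis), by role. Red points passed as higher (28), the blue point as lower (FANCF, -0.45) and grey points in neither direction (11). EXO1 lies farthest to the right at 1.70.

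Of the 4 factors that act in strand pairing 3 rose, with a median of 0.81 over the 4. Of the 5 genes of the mediator complexes, which help to prepare the strand for pairing, 2 rose, with a median of 0.24 over the 5. The difference between these kinds was not tested. RAD51AP1, which stimulates strand pairing, had 54.2, 41.0 and 45.7 CPM in siCRP2 and 26.6, 22.0 and 20.1 CPM in siCTR. The groups were far apart (log2 fold change 1.03, standard error 0.129, edgeR adjusted p = 1.9e-05). RAD54L, a translocase that moves along DNA and promotes strand pairing, had 49.9, 39.9 and 50.2 CPM in siCRP2 and 30.4, 19.9 and 23.7 CPM in siCTR, also without overlap (log2 fold change 0.92, standard error 0.150, edgeR adjusted p = 6.4e-04). RAD54B, its close relative, rose at a much lower level, with 3.67 ± 0.0472 CPM in siCRP2 and 2.24 ± 0.285 CPM in siCTR (SD, n = 3 each; log2 fold change 0.70). It did not pass when any siCRP2 library or siCTR 0611 was left out (edgeR adjusted p = 0.057 to 0.092), nor with the GC and length offset (log2 fold change 0.55, adjusted p = 0.070) or with thinned counts (adjusted p = 0.060). RAD54B shares 66.0% of its exonic bases with FSBP, which had 2 counts in each group. RAD52, which anneals complementary strands, had overlapping groups and a log2 fold change of 0.08.

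In the mediator complexes, RAD51B and XRCC2, which belong to a complex with RAD51C and RAD51D, rose by 0.57 and 0.54 on the log2 scale. RAD51B averaged 9.64 ± 0.893 CPM in siCRP2 and 6.505 ± 0.366 CPM in siCTR, and XRCC2 24.6 ± 2.12 CPM in siCRP2 and 16.8 ± 2.85 CPM in siCTR (SD, n = 3 each). The other 2 subunits of the same complex had negative fold changes that did not pass. RAD51C had 12.6, 12.7 and 11.1 CPM in siCRP2 and 14.9, 15.2 and 13.7 CPM in siCTR, without overlap, at a log2 fold change of -0.27 (edgeR adjusted p = 0.15, 0.028 with the code as a block, 0.035 with the GC and length offset and 0.030 among protein-coding genes averaging 5 CPM or more). RAD51D stood at -0.15 with overlapping groups. XRCC3, which pairs with RAD51C in a second complex, stood at 0.24 (edgeR adjusted p = 0.23, and 0.037 with the code as a block). With the GC and length offset XRCC3 was called higher at 0.41 (adjusted p = 0.017), and with offset and block at 0.40 (1.17e-05). On the opposite strand, KLC1 covers 76.7% of its exonic bases. RAD51B did not pass without siCRP2 0611 or 1311 (edgeR adjusted p = 0.079 and 0.055), nor XRCC2 without siCTR 0611 (0.054).

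All 4 genes of the dissolvasome rose. This complex of the BLM helicase, the topoisomerase TOP3A and the cofactors RMI1 and RMI2 unwinds double Holliday junctions without crossover. RMI1 had 51.0, 50.1 and 49.4 CPM in siCRP2 and 30.2, 28.7 and 26.6 CPM in siCTR, the narrowest spread of the 4 in siCRP2 (log2 fold change 0.81, standard error 0.0984, edgeR adjusted p = 1.3e-05). TOP3A had 78.5, 78.3 and 86.9 CPM in siCRP2 and 53.9, 47.2 and 56.9 CPM in siCTR (log2 fold change 0.62, standard error 0.0948, edgeR adjusted p = 1.2e-04). In both genes every siCRP2 library lay above every siCTR library. BLM had 29.6, 22.2 and 23.1 CPM in siCRP2 and 15.4, 10.1 and 10.3 CPM in siCTR (log2 fold change 1.06, standard error 0.173, edgeR adjusted p = 5.7e-04). RMI2 had 24.9, 18.3 and 16.7 CPM in siCRP2 and 12.9, 9.96 and 9.20 CPM in siCTR (log2 fold change 0.89, standard error 0.171, edgeR adjusted p = 0.0013). These 2 were highest in the 0412 library of each group, and their groups did not overlap either.

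The resolvases are nucleases that cut joined molecules apart, and SLX4 is their scaffold. Of the 4, EME1 rose, with 11.6 ± 2.11 CPM in siCRP2 and 8.05 ± 1.18 CPM in siCTR (SD, n = 3 each; log2 fold change 0.52, edgeR adjusted p = 0.030). Its call was lost without siCRP2 0412 or 0611 or siCTR 0611 or 1311 (edgeR adjusted p = 0.074 to 0.172), with edgeR's filterByExpr (0.053) and among protein-coding genes averaging 5 CPM or more (0.068). MUS81, the catalytic partner of EME1, had a log2 fold change of -0.24 (edgeR adjusted p = 0.14), and SLX4 one of -0.28 (edgeR adjusted p = 0.19). Both had overlapping groups, and both were lower with the code as a block (adjusted p = 0.0052 and 0.024). With the GC and length offset they stood at -0.09 and -0.10, and with offset and block together neither passed (-0.09 in both, adjusted p = 0.35 and 0.54). GEN1, a resolvase that acts alone, stood at 0.34 with overlapping groups (edgeR adjusted p = 0.40). It was higher with the code as a block (adjusted p = 0.0010) and without siCTR 0412 (adjusted p = 0.028).

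In the Fanconi anemia core complex 6 of 8 genes rose, with a median of 0.43 over the 8. FANCB had 14.4, 12.2 and 14.3 CPM in siCRP2 and 7.74, 6.29 and 6.54 CPM in siCTR (log2 fold change 0.99, standard error 0.149, edgeR adjusted p = 1.1e-04), which places its lowest siCRP2 library far above its highest siCTR library. FANCL, the ubiquitin ligase of the complex, binds FANCB and rose by 0.58. FANCG, FANCE, FANCC and FANCA, further subunits of the complex, rose by 0.51, 0.46, 0.40 and 0.35 on the log2 scale, with siCRP2 means of 31.3 to 47.8 CPM and siCTR means of 22.6 to 33.5 CPM. Of these, FANCC and FANCL were called under all 18 alternatives. FANCA, FANCE and FANCG lost their call without 4, 2 and 4 of the single libraries, siCRP2 1311 and siCTR 0611 among them in each case (edgeR adjusted p = 0.054 to 0.209). FANCA did not pass either under upper quartile scaling (adjusted p = 0.053) or with filterByExpr (0.051), nor did FANCA and FANCG among protein-coding genes averaging 5 CPM or more (0.073 and 0.058). FANCM, the translocase that brings the complex to the fork, stood at 0.37 (edgeR adjusted p = 0.054, 2.9e-04 with the code as a block, 0.042 without siCRP2 0611, 0.019 without siCTR 0412, 0.044 with no filter on low counts and 0.033 with thinned counts).

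FANCF, an adaptor protein within the core complex, was the member that fell. It had 8.46, 8.03 and 7.12 CPM in siCRP2 and 10.8, 11.8 and 9.70 CPM in siCTR. The groups did not overlap, and the log2 fold change was -0.45 (standard error 0.150, edgeR adjusted p = 0.036). The call was lost without siCRP2 0611 or 1311 or siCTR 0412 or 0611 (edgeR adjusted p = 0.053 to 0.147), while FANCF stayed below 0 on the log2 scale in each of these fits.

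The 5 genes that act with or after the core complex (UBE2T, FANCI, FANCD2, BRIP1 and FAN1) all rose. FANCI and FANCD2 form the clamp that receives ubiquitin. FANCI had 114.7, 95.3 and 110.3 CPM in siCRP2 and 72.0, 59.6 and 64.6 CPM in siCTR, the highest CPM of the 40 in siCRP2 cells (log2 fold change 0.71, standard error 0.0981, edgeR adjusted p = 5.1e-05). FANCD2 had 49.7, 34.4 and 37.5 CPM in siCRP2 and 30.4, 18.9 and 20.5 CPM in siCTR. Its groups did not overlap, but the 0412 libraries were far above the others in both, and the log2 fold change was 0.79 (standard error 0.209, edgeR adjusted p = 0.028). FANCD2 lost its call without siCTR 0611 or 1311 (edgeR adjusted p = 0.063 and 0.123). UBE2T, the ubiquitin-conjugating enzyme that works with FANCL, rose by 0.47 and had the highest level per kb of transcript of the 40, at 60.1 CPM per kb in siCRP2 and 43.3 in siCTR. The helicase BRIP1 and the crosslink nuclease FAN1 rose by 0.64 and 0.50. BRIP1 did not pass without siCTR 0611 (edgeR adjusted p = 0.056).

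Within each pair of libraries that share a code, most of the 40 were higher in siCRP2. The log2 ratio of siCRP2 over siCTR was above 0 for 33, 32 and 35 of the 40 in codes 0412, 0611 and 1311, with medians of 0.49, 0.54 and 0.60. In all 3 codes 32 members were higher, against 28.1% of all genes tested, and 5 were lower (ATM, RAD51C, MUS81, SLX4 and FANCF), against 27.4%. NBN, RAD51D and RAD52 had mixed signs.

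**Figure D3:**
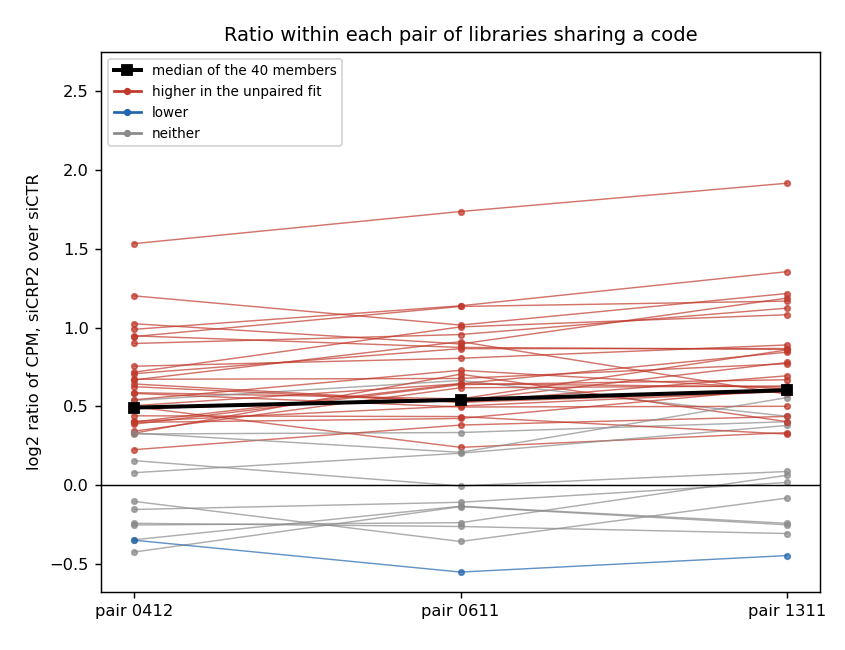
Log2 ratio of CPM, siCRP2 over siCTR (vertical axis), within each pair of libraries that share a code (horizontal axis), 1 line per gene, coloured by its call without the block. Black squares mark the median of the 40, at 0.49, 0.54 and 0.60.

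The 40 genes also shared a difference between codes. For each gene the deviation of log2 CPM from the mean of its own group was taken, over the 39 members averaging 5 CPM or more. In the 0412 libraries 33 members lay above the group mean in siCRP2 and 34 in siCTR, with median deviations of 0.108 and 0.169. In the 0611 libraries 4 were above it in siCRP2 and 7 in siCTR, with medians of -0.129 and -0.09. The 1311 libraries differed between the groups, with 17 above in siCRP2 and 10 in siCTR and medians of -0.004 and -0.094. Summed over the 40, the level was 1575, 1340 and 1450 CPM in siCRP2 and 1136, 951 and 961 CPM in siCTR, so that the code 0412 was highest in each group and the groups did not overlap. A difference between codes was not particular to the 40. Over 10827 genes, such deviations correlated at 0.723, 0.459 and 0.744 within codes. Sums of S phase genes and of G2 and M phase genes, given below, were also highest in 0412 of each group. The share of all genes above their group mean was not counted.

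**Figure D4:**
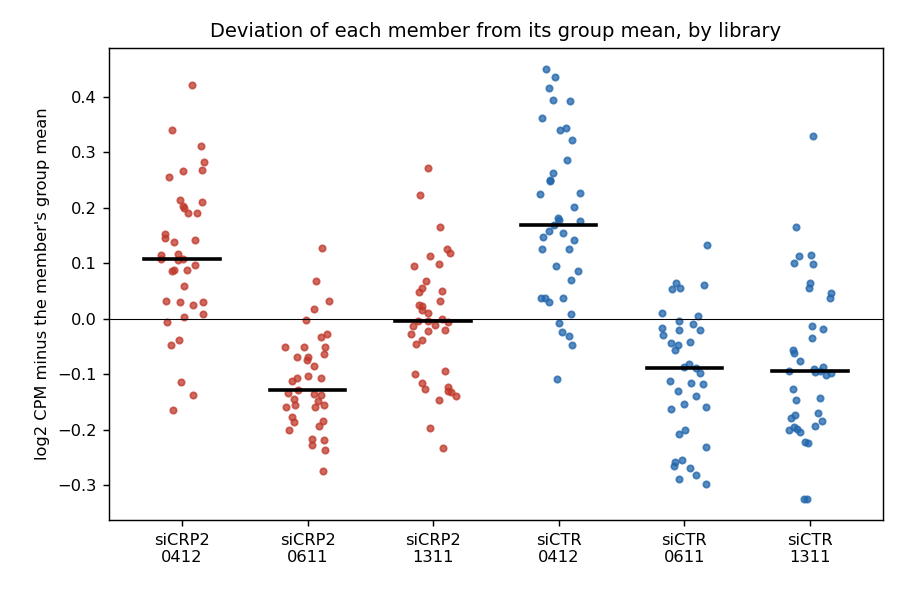
Log2 CPM minus the mean of the gene's own group (vertical axis), 1 point for each of the 39 members averaging 5 CPM or more, by library (siCRP2 red, siCTR blue). Black bars are medians, which are highest in the 0412 library of each group, at 0.108 in siCRP2 and 0.169 in siCTR.

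Of 50 other genes of the same pathways that were tested, 19 were higher (38%) and 2 lower (4%), with a median of 0.27. Over all genes tested, 12.5% were higher and 11.5% lower. Those with the smallest p were TOPBP1, an activator of the kinase ATR (log2 fold change 0.77), MCM8, a helicase of recombination (0.83), FIGNL1, a recombination factor (1.25), and DNA2, a resection nuclease (0.95). BABAM2 and BRCC3, which both belong to the BRCA1-A complex that restrains resection, fell by 0.59 and 0.31 on the log2 scale. The complex as a whole did not share this fall. Its other subunits UIMC1, ABRAXAS1 and BABAM1 stood at 0.23, -0.05 and -0.08 and were not called. Of the 50, 5 were lower with the code as a block, against 17.8% of all genes tested, and 1 without siCRP2 1311 or siCTR 0611.

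Of 34 genes with a peak in S phase, none of them a member, 26 rose and all 34 had a positive fold change, with a median of 0.61. Their summed level was 3792, 3637 and 3722 CPM in siCRP2 and 2801, 2222 and 2303 CPM in siCTR, without overlap. Of 50 genes of G2 and M phase, 5 rose (10%) and 11 fell (22%), with a median of -0.04. Over all genes tested 12.5% were higher and 11.5% lower. Among protein-coding genes averaging 5 CPM or more these shares were 25.9% and 18%. The G2 and M phase sums of 7402, 6617 and 6561 CPM in siCRP2 overlapped those of 8167, 6828 and 6474 CPM in siCTR. With the code as a block, 10 of the 50 rose and 18 fell, against 19.5% and 17.8% of all genes tested. Leaving out single libraries gave 1 to 8 higher and 7 to 14 lower. In bulk RNA, more cells in S phase and more RNA of these genes per cell cannot be told apart, and the part of the cell cycle in the rise of the 40 was not tested.

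**Figure D5:**
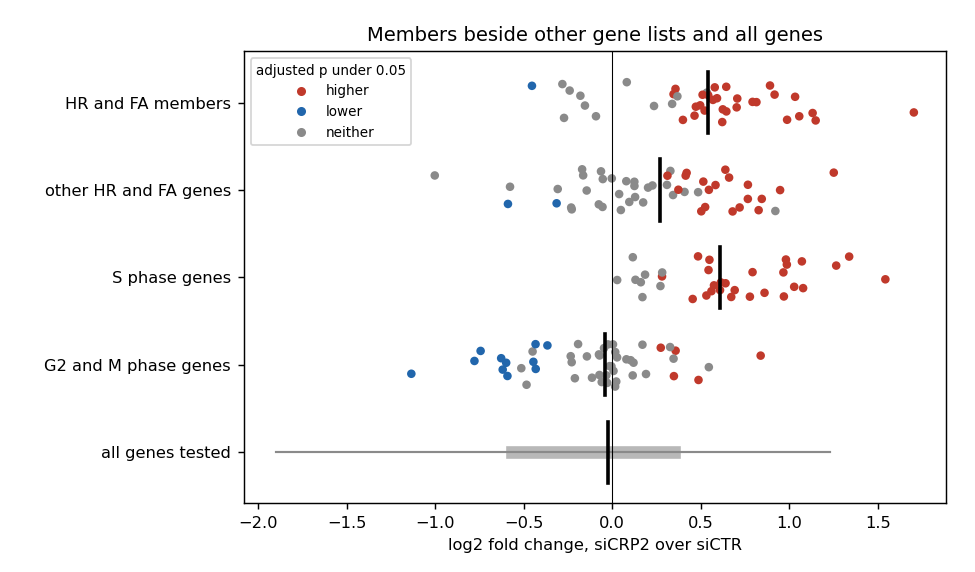
Log2 fold change, siCRP2 over siCTR (horizontal axis), of the 40 members, 50 other genes of the same pathways, 34 S phase genes and 50 genes of G2 and M phase, 1 point per gene, coloured by call. Black bars are medians (0.54, 0.27, 0.61 and -0.04). The lowest row gives all genes tested, with the box from the 25th to the 75th percentile (-0.57 to 0.35) and the line from the 5th to the 95th (-1.90 to 1.23).

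Promoters of the members were searched for the letters bound by E2F factors, which drive S phase genes. RefSeq promoters of GRCh38.p14, each 250 bases before to 50 after a start, were matched for 36 of the 40, taking the start nearest to that of the canonical transcript, and RAD51B was the member whose start lay more than 100 bases from it. The 8-letter forms TTTCCCGC and TTTGGCGC, on either strand, were in 3 of 36 (8.33%), against 3.19% of 15344 protein-coding genes and 53.8% of 26 S phase genes. The 7-letter cores TTCCCGC and TTGGCGC, which lie within those forms and were searched after that count was seen, were in 19 of 36 (52.8%), against 12.7% of all 15344, 15.8% of those averaging 5 CPM or more and 73.1% of the S phase genes. They were in 16 of the 25 members called higher and in 3 of the 11 others. The CCAAT box was in 41.7%, against 36.6% of all, and TTTGAA, the core of the CHR element of G2 and M phase genes, in 11.1%, against 11.6%. BRCA2 and EXO1 had no core in this window. A match is a run of letters and not a measured site.

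The stretches around the core are shown for 6 higher members with library values above, to let the shared letters be seen, 5′ to 3′ on the strand of the gene, with the core in capitals. They lie at chr17:43125394-43125422 (minus strand, BRCA1), chr15:90717261-90717289 (plus, BLM), chr12:4538858-4538886 (plus, RAD51AP1), chr1:46247628-46247656 (plus, RAD54L), chr9:83980774-83980802 (plus, RMI1) and chr17:18315093-18315121 (minus, TOP3A) of GRCh38.p14. Each is upstream of the start of the canonical transcript, and those of BLM and TOP3A lie outside any annotated exon.
BRCA1: aacggaaaagcGCGGGAAttacagataaa
BLM: agcctgaggggGCGGGAAcagatgtccga
RAD51AP1: tctggttttggGCGGGAAttgaaaccgcc
RAD54L: gcgcagcactaTTCCCGCctcttccttgg
RMI1: cggcaaatcggGCGGGAAgaggtaaaaaa
TOP3A: agacgggggcgGCGGGAAggtggcagagg
Each stretch shows the last core that lies wholly before the start. This core began 47 bases before the start in BRCA1, 74 in BLM, 21 in RAD51AP1, 124 in RAD54L, 20 in RMI1 and 116 in TOP3A. BLM also held GCGGGAA and TTGGCGC after the start, at positions 4 and 23. In 5 of the 6 stretches the strand of the gene reads GCGGGAA and in RAD54L it reads TTCCCGC, the reverse complement. FANCF, the member that fell, and ATM had no core in their windows. RAD51D, RAD52 and XRCC3, which were not called higher either, did hold the core.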

How the data were processed

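Poly(A) RNA of 6 MDA-MB-231 libraries was sequenced. The authors aligned paired reads to GRCh38 with STAR and deposited raw counts per gene. The sources used here give no STAR version, annotation or strand setting, so antisense overlaps are uncertain. Columns were assigned to siCRP2 or siCTR by name. The authors call the replicates biological.

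The test kept 23806 genes, those counted in 2 or more of a group's 3 libraries. TMM factors were 0.989 to 1.03, and the test was run in edgeR 4.0.16 (R 4.3.3), robust quasi-likelihood, with no covariate. Standard errors were derived from the F statistic. Symbols, coordinates and exons came from GENCODE release 44. Every member is named, with values in each library for the 12 smallest p, FANCF, BRCA1, BRCA2, PALB2, FANCD2, FANCI and ATM. NBN, RAD50 and RAD51C were added after their values were seen. Members and lists were chosen with earlier results of these data known, and 1 gene of the other lists is not reported here.

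Codes paired the libraries: deviations from the group means correlated at 0.723, 0.459 and 0.744 within codes and at most 0.114 between them (10827 genes averaging 5 CPM or more). Deviations of a gene sum to 0 within a group, so positive values within codes push those between codes down. The low values between codes are therefore no separate support for the pairing. Chi-square per degree of freedom between replicates was 12.4 to 48.3, so none was a copy. The fit was tested on simulated counts, and 18 alternatives were run. The simulated counts held no difference between codes, unlike these data, so they do not test the fit for paired libraries.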

Additional observations from a re-analysis of the deposited data

How the results depend on the processing

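The count of 28 higher members stayed within 26 to 32 in the alternatives that kept all libraries and all members, which used other tests (the edgeR exact test and DESeq2), scalings, filters, depth and corrections. In 18 alternatives 17 of the 28 kept their call, and RAD51D and RAD52 passed in none. Leaving out 1 library gave 18 to 29 higher members, 0 to 1 lower, 13 to 23 higher by at least 1.5-fold and medians of 0.48 to 0.64. Among these fits NBN (-0.09) ranged from -0.20 without siCRP2 0412 to 0.052 without siCTR 0412, and it was called lower with the offset and block described below (-0.22).

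Lower members numbered 5 with the replicate block by code, 3 with a GC and length offset, 4 with both and 3 among protein-coding genes averaging 5 CPM or more. This last setting, chosen after seeing the data, gave 11 members higher by at least 1.5-fold and a median of 0.45 over 39. Over all genes the block gave 4644 higher and 4229 lower, against 2987 and 2735, and 4931 higher with the offset as well. The lower genes were 17.8% of the 23806 tested with the block and 11.5% without it. With the offset alone, 3266 of the 23806 were higher and 2605 lower. For offset and block together and for the 5 CPM setting, the lower counts over all genes are not given here. Leaving out 1 library gave 1933 to 3128 higher and 2048 to 2888 lower. The block leaves 2 residual degrees of freedom against 4 without it, and edgeR's prior then dominates, so its small p-values rest on a spread shared by all genes. Beyond the calls named above the block alone changed no call of a member.

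Of the other genes of the pathways, 5 were lower with the block and 6 with block and offset, and 1 to 3 with a library left out (14 to 21 higher). The S phase genes had 23 to 32 higher with a library left out. Higher genes of G2 and M phase numbered 3 in the edgeR exact test, with filterByExpr, with the offset and among protein-coding genes only, 2 under upper quartile scaling, 1 among those with at least 5 CPM, 10 with the block and 8 with block and offset, and 1 to 8 with a library left out. Lower ones numbered 18 and 23 in these 2 blocked fits and 7 to 14 with a library left out. The causes of these shifts were not tested. Thinned to the smallest library, RAD54B lost its call (edgeR adjusted p = 0.060), while RAD50 (0.045) and FANCM (0.033) gained one.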

Other observations

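The heptamer GCCTCAC, which had been picked from these same data earlier and is no independent measure, was in the canonical transcripts of 8 of the 40 members (20%, against 23.9% of all protein-coding genes tested; RAD50, RAD51D, RAD54B, BLM, TOP3A, SLX4, GEN1 and FANCG). It was in 4 of the 28 higher members (14.3%) and in 4 of the 12 others (33.3%). Among protein-coding genes tested it was in 11.9% of the higher and 46.5% of the lower genes. FANCF does not hold it.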
